A study of Mus musculus with 6 samples.

Results

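The proteasome genes described here are the 50 protein-coding genes, of 35275 gene identifiers in the deposited table, whose mouse symbol starts with Psma, Psmb, Psmc, Psmd, Psme, Psmf or Psmg followed by a digit. Symbols were looked up from the Ensembl identifiers, and 4 pseudogene rows with such symbols were left out. RNA was sequenced from regulatory T cells (Treg cells, the Foxp3-dependent CD4+ T cells that hold other immune cells in check) of male mice aged 6 to 8 weeks. The control group holds 3 libraries from Foxp3YFPcre mice, in which cells that use the Foxp3 gene make Cre recombinase and yellow fluorescent protein (YFP). The deletion group holds 3 libraries from Rcor1fl/flFoxp3YFPcre mice, which carry the same Cre and in addition floxed Rcor1, the gene of the corepressor scaffold CoREST1. Cells of both groups were enriched for CD4 and sorted for YFP, and the labels call the replicates of a group independent biological ones. No batch is given, so a batch and the groups cannot be told apart.

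The proteasome is the main protease of the cytosol and nucleus and degrades proteins tagged with ubiquitin. Its barrel-shaped core particle is built of outer rings of alpha subunits, which gate the entrance, and inner rings of beta subunits, some of which carry the cutting sites. A regulatory particle with an ATPase ring and non-ATPase subunits binds, unfolds and feeds in the tagged protein, other activators open the gate without ubiquitin, and chaperones assemble the whole. In lymphocytes and under interferon gamma the catalytic subunits Psmb5, Psmb6 and Psmb7 are replaced by Psmb8, Psmb9 and Psmb10, which gives the immunoproteasome that makes many of the peptides shown on MHC class I.

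Library totals recovered from the values ran from 18538581 to 22349455 fragments. Values are FPKM, fragments scaled to transcript length and library total. The length was that of the longest transcript for some genes and was solved from the values for others. Comparisons of level between genes, such as highest, lowest and fold ranges, therefore depend on the lengths used. Foxp3 lay between 88.0 and 106 FPKM and Cd4 between 225 and 243 FPKM over the 6 libraries, and the sum of 6 Treg and T cell markers between 953 and 1119 FPKM. Rcor1 was at 16.1, 16.2 and 15.2 FPKM in the control libraries and at 12.5, 13.0 and 14.2 FPKM in the deletion libraries. These groups did not overlap. The limma adjusted p of Rcor1 was 0.0562. It was 0.0314 with quantile normalization, 0.0289 with median-ratio scaling and 0.0166 with limma's voom, which here also used median-ratio scaling. Rcor1 thus passed in 4 of 17 settings, and whether the FPKM counts the floxed exons is not stated in the labels. Markers of other cells differed between the groups. The summed level of 5 lens markers was 91.3 to 178 FPKM in control and 0.168 to 0.383 FPKM in deletion libraries, that of 4 fat markers 37.5 to 48.0 and 0.561 to 1.19 FPKM, and that of 5 plasma cell markers 195 to 511 and 570 to 681 FPKM. Of the 5 plasma cell markers 1 rose and 0 fell. The one that rose, the immunoglobulin gene Ighg1, was at 5.33, 34.7 and 6.31 FPKM in control and at 102, 94.9 and 115 FPKM in deletion libraries (limma adjusted p = 0.0228). Jchain, the highest of the 5, was at 141, 411 and 152 FPKM in control and at 404, 444 and 496 FPKM in deletion libraries (limma adjusted p = 0.0988). The groups overlapped for Jchain, Xbp1 and Prdm1, and Prdm1 alone had a log2 fold change below 0 (-0.09). The ranges of 5 B cell markers (20.4 to 40.3 and 37.4 to 44.9 FPKM), 5 myeloid markers (10.6 to 47.9 and 9.02 to 80.4 FPKM), 4 dendritic cell markers (2.72 to 3.85 and 2.08 to 4.40 FPKM), 2 NK markers (6.07 to 8.17 and 6.72 to 7.57 FPKM), 2 CD8 T cell markers (10.7 to 17.7 and 10.9 to 12.6 FPKM) and 3 erythroid markers (21.2 to 334 and 7.11 to 62.1 FPKM) overlapped. The part of these markers in the results below was not tested. In sorted bulk cells, fewer cells of a type and less RNA per cell cannot be told apart.

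Most proteasome genes had a slightly lower level in Rcor1-deleted than in control Treg cells, and few of these differences passed the test. Of the 50 genes, 48 reached 1 FPKM in at least 3 libraries and were tested, and of these 4 fell and 0 rose at an adjusted p under 0.05 (limma on log2(FPKM + 1), adjusted over all 11575 tested genes). The 4 are Psma2, Psmd4, Psme2 and Psme3. Among all tested genes 3.08% fell and 8.95% rose. The log2 fold change was below 0 in 41 of 48 members (85.4%), against 34.7% of all tested genes. The median was -0.11 for the members and 0.08 for all tested genes. All deletion values lay below all control values in 11 of the 48 tested members (22.9%), against 9.79% of all tested genes, and above them in 2 members (4.17%), Psmb8 and Psmg2, against 29.3%. At an unadjusted p under 0.05 there were 13 members (27.1%), where all tested genes gave 32.6%. With limma's voom on recovered fragments, which also used median-ratio scaling, 8 members fell and 0 rose, where 6.29% of all tested genes fell.

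**Figure D1:**
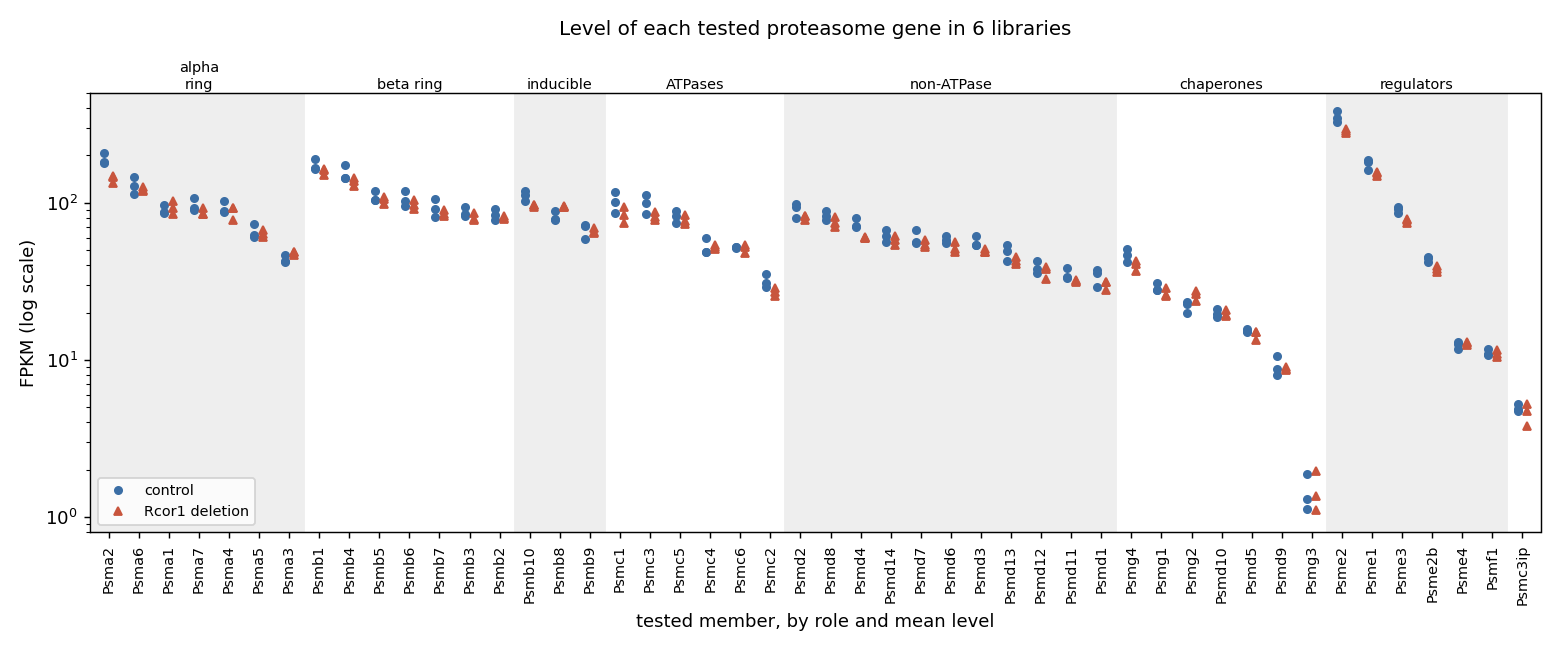
FPKM on a log scale of the 48 tested proteasome genes, in role groups and by mean level, with 3 control libraries as circles and 3 Rcor1 deletion libraries as triangles. Psme2 stands highest, Psmg3 and the meiotic gene Psmc3ip lowest, and for most genes the triangles lie within or below the circles. All 3 triangles lie above the circles for Psmb8 and Psmg2, and 2 of 3 for Psma3.

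The scale of the libraries bears on each of these values. Median-ratio scaling, which sets the median gene of each library equal, moved the median log2 fold change of all tested genes from 0.08 to 0.00 and that of the members from -0.11 to -0.20. It left 45 of 48 members below 0, where 49.6% of all genes were, and 8 members fell, where 5.46% of all genes did. The further genes are Psmb10, Psmd3, Psme1 and Psme2b, and voom, on the same scaling, called the same 8. With quantile normalization 44 of 48 members were below 0, where 51.2% of all genes were, and 2 members fell, Psma2 and Psmd4, where 3.41% of all genes did. The members' median thus lay below that of all genes on each of these scales.

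**Figure D2:**
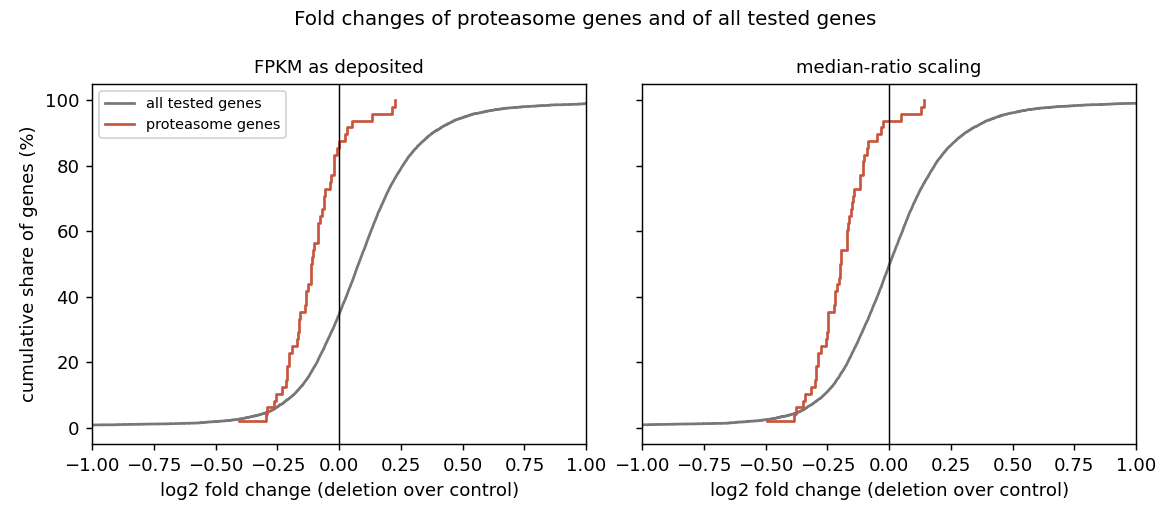
Cumulative share of genes against log2 fold change (deletion over control) for the 48 tested proteasome genes and all 11575 tested genes, on FPKM as deposited (left) and after median-ratio scaling (right). On the left 85.4% of members and 34.7% of all genes lie below 0. The proteasome line lies left of the line of all genes through most of its range, and the scaling shifts both lines together.

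The 50 genes summed to 3510, 3490 and 3988 FPKM in control libraries 1, 2 and 3 and to 3292, 3422 and 3212 FPKM in deletion libraries 1, 2 and 3. Control library 3 was the highest control for 40 of 48 members (83.3%), against 34.8% of all tested genes, and the highest of all 6 libraries for 36 of them. Deletion library 2 was the highest deletion library for 29 of the 48 (60.4%), against 36.9% of all tested genes. The groups did not overlap in the sum, which changed by -9.66% in the mean, by -5.46% without control library 3 and by -14.97% with median-ratio scaling. Members held 0.535% to 0.612% of the fragments in control and 0.498% to 0.528% in deletion libraries. Without control library 3 the median log2 fold change of the members was -0.06, Psma2 fell and Psmb8 rose. Without control library 1 Psme2 alone fell, and without control library 2 Psmc3 and Psmd2 fell beside the 4. No member passed without deletion library 1, 2 or 3. Over all 17 settings Psma2 passed in 12, Psmd4 in 10, Psme2 in 9 and Psme3 in 8.

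The alpha subunits form the outer rings and, apart from Psma8, belong to the standard core particle. Of 7 tested, 1 fell, Psma2, and 5 had a log2 fold change below 0. Among all tested genes 3.08% fell and 34.7% were below 0. Psma2 was at 181, 178 and 208 FPKM in control libraries 1, 2 and 3 and at 145, 148 and 134 FPKM in deletion libraries 1, 2 and 3. Every deletion library lay below every control library, as in 9.79% of all tested genes. Its mean went from 189 ± 16.5 to 142 ± 7.53 FPKM (SD, n = 3 each), a log2 fold change of -0.41 (SE 0.075, limma adjusted p = 0.0209). It showed the lowest log2 fold change of the 48 members, and adjusted p-values over the settings ran from 0.00814 to 0.0831.

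Psma2 stayed the highest alpha gene by FPKM in every library, but its share among the alpha subunits was lower in deletion libraries. A single scaling factor for a library cannot move a share, which comes from the same values as the fold change. Psma2 made up 26.7%, 27.0% and 26.7% of the summed FPKM of the alpha genes in control libraries and 22.2%, 21.9% and 22.0% in deletion libraries. The share was thus nearly constant within a group, and the mean moved by -4.73 percentage points. Shares of 1 sum are tied, so a lower share of Psma2 raises those of the other alpha genes whatever their own levels. The shares of Psma1, Psma3, Psma5 and Psma8 were higher in deletion libraries, also without overlap. No test was run on shares.

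The other alpha genes did not pass the threshold. Psma3 was at 42.2, 42.5 and 46.3 FPKM in control and at 48.7, 48.8 and 46.2 FPKM in deletion libraries (adjusted p = 0.163), and Psma1 at 90.1 ± 6.13 and 93.7 ± 9.05 FPKM. Psma4, Psma5, Psma6 and Psma7 had log2 fold changes of -0.08, -0.03, -0.07 and -0.14, with intervals that include 0. Psma6 was the highest after Psma2, at 129 ± 16.5 and 122 ± 3.88 FPKM. Levels in FPKM ran over 3.62-fold between Psma3, the lowest, and Psma2. Before scaling to length, Psma3 had 2409 to 3095 and Psma2 2553 to 3638 fragments per library, so this range depends on the lengths used. Psma8, the alpha subunit of male germ cells, was not tested. It was at 0.057, 0.030 and 0.127 FPKM in control and at 0.238, 0.233 and 0.175 FPKM in deletion libraries, from 1 to 9 fragments per library. Markers of male germ cells were low too, with 1 of 4 at 0 in every library and a sum of 0.811 to 1.60 FPKM in control and 1.84 to 2.20 FPKM in deletion libraries.

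The stretch before the start of Psma2 is shown because this gene changed most. It is the 250 bases at chr13:14612992-14613241 on the plus strand of GRCm38.p6, from RefSeq, 5′ to 3′, and capitals mark a CCAAT box, a common promoter element, at 54 bases before the start.

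Psma2: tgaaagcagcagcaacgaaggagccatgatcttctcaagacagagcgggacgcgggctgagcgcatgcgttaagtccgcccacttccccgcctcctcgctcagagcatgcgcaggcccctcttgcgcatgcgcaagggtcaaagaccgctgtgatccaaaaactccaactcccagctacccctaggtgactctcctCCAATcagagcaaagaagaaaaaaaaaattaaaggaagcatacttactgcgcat

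CCAAT, searched on both strands, occurs in 33.9% of the 32851 RefSeq windows of this length. Of the 42 members with a window, 15 hold it (35.7%).

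The constitutive beta subunits form the inner rings. Of 7 tested, 0 passed in limma or voom, 0 had an unadjusted p under 0.05, and 7 had a log2 fold change below 0, from -0.16 (Psmb4) to -0.06 (Psmb2). Among all tested genes 32.6% had an unadjusted p under 0.05 and 34.7% were below 0. Their sum was 759, 767 and 888 FPKM in control and 729, 777 and 724 FPKM in deletion libraries, so the groups overlapped. Levels lay within 2.02-fold of each other, between Psmb1 at 173 ± 13.5 and 159 ± 6.97 FPKM and Psmb2 at 84.1 ± 6.51 and 80.6 ± 1.94 FPKM. The groups did not overlap for Psmb1 (adjusted p = 0.251).

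Psmb5, Psmb6 and Psmb7 carry the standard cutting sites, of the chymotrypsin, caspase and trypsin type. Psmb5 was at 104, 104 and 118 FPKM in control and at 97.7, 109 and 105 FPKM in deletion libraries, a log2 fold change of -0.06 (95% interval -0.23 to 0.11). Psmb6 was at 95.3, 103 and 118 FPKM and at 97.2, 104 and 91.3 FPKM. Psmb7 was at 91.8, 81.3 and 105 FPKM and at 84.8, 89.9 and 82.2 FPKM. The groups overlapped for all 3.

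Of their 3 tested inducible counterparts 0 passed in limma, while Psmb10 fell in voom, and unadjusted p-values under 0.05 came from Psmb8 and Psmb10. Psmb8, which replaces Psmb5, was at 78.5, 77.8 and 88.1 FPKM in control and at 95.6, 93.7 and 94.4 FPKM in deletion libraries. Every deletion library was above every control library, as in 29.3% of all tested genes. The mean was 81.5 ± 5.80 in control and 94.6 ± 0.948 FPKM in deletion libraries, a log2 fold change of 0.22 (SE 0.061) that did not pass (adjusted p = 0.0601). It passed without control library 3 (adjusted p = 0.0356), and with median-ratio scaling it was 0.13 (adjusted p = 0.224). Psmb10, which replaces Psmb7, was at 103, 113 and 119 FPKM in control and at 96.0, 96.5 and 94.2 FPKM in deletion libraries. Here every deletion library was below every control library, as in 9.79% of all tested genes. The log2 fold change was -0.21 (SE 0.063, adjusted p = 0.066), and -0.30 with median-ratio scaling (adjusted p = 0.0319). Psmb9, which replaces Psmb6, was at 58.5, 71.1 and 72.1 FPKM in control and at 64.8, 64.4 and 68.7 FPKM in deletion libraries (log2 fold change -0.02, 95% interval -0.23 to 0.18).

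Within a library, the share of an inducible subunit in its pair did not overlap between groups for Psmb8, and overlapped for Psmb9 and Psmb10. Psmb8 made up 43.0%, 42.8% and 42.8% of the summed FPKM of the Psmb8 and Psmb5 genes in control and 49.4%, 46.2% and 47.3% in deletion libraries. Psmb9 made up 38.0%, 40.8% and 37.8% of its sum with Psmb6 in control and 40.0%, 38.2% and 42.9% in deletion libraries. Psmb10 made up 52.8%, 58.1% and 53.0% of its sum with Psmb7 in control and 53.1%, 51.8% and 53.4% in deletion libraries. Inducible subunits therefore gave between 37.8% and 58.1% of the summed FPKM of each pair in every library. The size of these shares depends on the lengths used. Psmb9 was scaled to 2884 bases, with 3476 to 4174 fragments per library, and Psmb6 to 966 bases, with 1785 to 2122 fragments. Psmb11, the catalytic subunit of the thymic cortex, was not tested. It was at 0, 0.059 and 0.013 FPKM in control and at 0, 0.012 and 0.012 FPKM in deletion libraries, with 0 to 5 fragments per library, and a count of 0 allows up to 3 fragments. The sum of 4 markers of thymic epithelium was 7.38 to 8.40 FPKM in control and 7.18 to 8.44 FPKM in deletion libraries. Most of it came from Epcam (control mean 5.05 and deletion mean 4.70 FPKM) and Ccl25 (2.26 and 2.60 FPKM). Prss16 was at 0.657 and 0.616 FPKM, and Foxn1 at 0.015, 0 and 0 FPKM in control and at 0 in every deletion library.

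**Figure D3:**
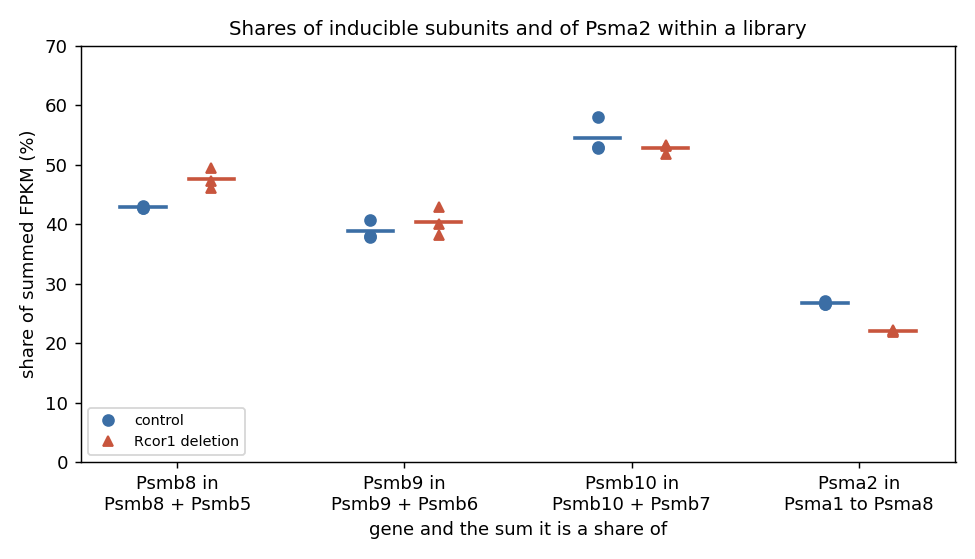
Share (%) of an inducible catalytic subunit in its summed FPKM with the constitutive partner, and share of Psma2 in the summed alpha genes, for 3 control libraries (circles) and 3 Rcor1 deletion libraries (triangles), with bars at the means. The groups are apart for Psmb8 (42.8% to 43.0% against 46.2% to 49.4%) and for Psma2 (26.7% to 27.0% against 21.9% to 22.2%) and overlap for Psmb9 and Psmb10.

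Psmb8 and Psmb9 lie side by side in the MHC class II region of chromosome 17 with Tap1, a subunit of the transporter that carries proteasome products into the endoplasmic reticulum. In RefSeq on GRCm38.p6, Psmb9 spans 34182030 to 34187330, Tap1 34187556 to 34197225 and Psmb8 34198195 to 34201454. Psmb9 and Tap1 start back to back with 225 bases between their first bases, and 969 bases lie between the end of Tap1 and the start of Psmb8. Tap1 was at 106, 117 and 122 FPKM in control and at 127, 123 and 137 FPKM in deletion libraries (log2 fold change 0.16, adjusted p = 0.172). As for Psmb8, the lowest deletion value of Tap1 lay above its highest control value, while the groups overlapped for Psmb9. In GENCODE, exons of Psmb9 and Tap1 overlap on opposite strands, as do those of Psmb8 and Gm20496 (0.285 and 0.723 FPKM). No source states whether the counting used strand, so reads of these genes cannot be told apart with certainty.

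The sequences before these genes are shown to set the Psmb8 start beside that of Psmb5 and the shared stretch of Psmb9 and Tap1. Capitals mark matches to GAAA, any 2 bases and GAAA (interferon-stimulated response element), TTCNNNGAA (gamma-activated site), TGACNNNGC (antioxidant response element core) and CCAAT, each searched on both strands. The Psmb8 window is chr17:34197945-34198194 on the plus strand, the Psmb5 window chr14:54617996-54618245 on the minus strand, and the stretch between Psmb9 and Tap1 chr17:34187331-34187555, written on the plus strand.

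Psmb8: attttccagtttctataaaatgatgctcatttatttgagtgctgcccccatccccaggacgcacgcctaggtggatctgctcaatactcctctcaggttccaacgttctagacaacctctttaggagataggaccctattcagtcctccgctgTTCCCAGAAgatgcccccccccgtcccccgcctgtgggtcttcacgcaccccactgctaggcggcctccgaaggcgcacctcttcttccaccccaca
Psmb5: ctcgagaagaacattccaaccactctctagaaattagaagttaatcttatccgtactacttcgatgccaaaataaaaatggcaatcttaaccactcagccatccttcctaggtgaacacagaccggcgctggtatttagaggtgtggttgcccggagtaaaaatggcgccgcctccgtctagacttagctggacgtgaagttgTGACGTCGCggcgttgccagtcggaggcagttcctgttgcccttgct
Psmb9-Tap1: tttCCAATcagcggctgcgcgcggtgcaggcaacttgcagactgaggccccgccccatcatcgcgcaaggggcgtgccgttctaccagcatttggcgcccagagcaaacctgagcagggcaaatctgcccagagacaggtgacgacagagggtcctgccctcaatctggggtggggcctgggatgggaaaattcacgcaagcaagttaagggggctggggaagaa

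The Psmb8 window holds TTCCCAGAA, a match to TTCNNNGAA, at 97 bases before the RefSeq start. In GENCODE Psmb8 starts further upstream, at 34197721, so this window lies inside that gene span. This motif occurs in 7.02% of all windows and in those of 2 of the 42 members with a window (4.76%), Psmb8 and Psmg1. The Psmb5 window holds TGACGTCGC, a match to TGACNNNGC, at 47 bases before the start, as do those of Psmb6, Psmc6, Psmd9 and Psmd12 at other places, which makes 5 of 42 members (11.9%) against 10.2% of all windows. The stretch between Psmb9 and Tap1 holds a CCAAT box near the Psmb9 start and no match to the other letters. A match is a description of the letters and not of a factor at work there.

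The ATPase ring unfolds substrates. Of its 6 genes 0 passed in limma or voom. Unadjusted, 2 had a p under 0.05, Psmc3 and Psmc2. Psmc3 was at 99.0, 85.1 and 111 FPKM in control and at 80.8, 86.8 and 78.2 FPKM in deletion libraries (log2 fold change -0.26, adjusted p = 0.129). Psmc1, the highest, was at 102, 86.0 and 117 FPKM and at 84.0, 94.0 and 74.4 FPKM (log2 fold change -0.26, adjusted p = 0.199). In both genes control library 2 lay among the deletion values. Psmc2, the lowest ATPase, was at 30.6, 28.9 and 35.2 FPKM and at 27.1, 28.7 and 25.5 FPKM, without overlap (adjusted p = 0.14). Psmc4, Psmc5 and Psmc6 had log2 fold changes of 0.00, -0.06 and -0.02.

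The non-ATPase subunits of the regulatory particle recognise and strip ubiquitin chains and scaffold the particle. Of 11 tested, 1 fell, Psmd4, and 11 had a log2 fold change below 0, from -0.29 to -0.08. Among all tested genes 3.08% fell and 34.7% were below 0. Psmd4, a receptor for ubiquitin chains, was at 71.2, 69.7 and 79.7 FPKM in control libraries and at 60.5, 59.5 and 59.2 FPKM in deletion libraries. The deletion values were close together and all below control. The means were 73.5 ± 5.43 and 59.8 ± 0.662 FPKM, and the log2 fold change was -0.29 (SE 0.062, limma adjusted p = 0.0303). It made up 11.5% of the summed non-ATPase FPKM in the control mean and 10.5% in the deletion mean, without overlap. Such shares are not particular to Psmd4. In the sums of their own role groups, Psmc2, Psmc3, Psmg4 and Psmb10 had lower shares in deletion libraries without overlap. Psmc4, Psmc5, Psmg2, Psme4, Psmf1 and Psmb8 had higher ones.

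The groups also did not overlap for Psmd3 and Psmd11, scaffold subunits of the lid. Psmd3 was at 56.5 ± 4.33 and 49.3 ± 1.01 FPKM (adjusted p = 0.0943) and Psmd11 at 35.1 ± 2.78 and 31.8 ± 0.385 FPKM (adjusted p = 0.202). Psmd2, a large scaffold of the base and the highest of this group, was at 90.8 ± 9.07 and 80.8 ± 2.94 FPKM, and Psmd1, its partner and the lowest, at 34.1 ± 4.37 and 30.2 ± 2.01 FPKM. The deubiquitinase Psmd14 was at 61.2 ± 5.42 and 57.6 ± 3.81 FPKM (adjusted p = 0.496). Over the whole regulatory particle 17 of 17 deletion means were below the control means. The log2 fold change was below 0 in 16 of 17, against 34.7% of all tested genes. The summed FPKM of the particle changed by -10.5% (-15.8% with median-ratio scaling). Without control library 3 the sum changed by -5.03% for the ATPases, against -10.3% with it, and by -6.64% for the non-ATPase subunits, against -10.7%.

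The window before Psmd4, the ubiquitin receptor that fell, is chr3:95042615-95042864 on the minus strand. Its capitals mark a reversed CCAAT box at 95 bases and a reversed match to the interferon-stimulated response element at 80 bases before the start.

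Psmd4: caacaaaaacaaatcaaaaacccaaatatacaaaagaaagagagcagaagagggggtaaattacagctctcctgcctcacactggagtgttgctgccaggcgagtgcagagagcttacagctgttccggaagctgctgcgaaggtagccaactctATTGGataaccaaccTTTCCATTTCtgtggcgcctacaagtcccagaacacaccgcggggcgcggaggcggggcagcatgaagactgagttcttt

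This element occurs in 2.98% of all windows and in those of 3 of 42 members, which are Psmb3, Psmd4 and Psmd9.

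Among the activators and the inhibitor, 2 of 6 tested genes fell, Psme2 and Psme3, and 0 rose, where 3.08% of all tested genes fell and 8.95% rose. The 6 genes summed to 651, 682 and 730 FPKM in control and to 574, 581 and 581 FPKM in deletion libraries, so the groups did not overlap, and the mean changed by -15.9% (-13.2% without control library 3). Psme1 and Psme2 encode the subunits of an interferon-inducible ring that opens the core particle. Psme2, the highest of all 50 genes, was at 328, 348 and 383 FPKM in control and at 278, 296 and 287 FPKM in deletion libraries (log2 fold change -0.30, SE 0.067, adjusted p = 0.0353). Psme1 was at 162, 182 and 188 FPKM in control and at 155, 149 and 158 FPKM in deletion libraries (log2 fold change -0.20, SE 0.066, adjusted p = 0.0884). For both genes every deletion library was below every control library, as in 9.79% of all tested genes. Psme2 made up 65.7% to 67.1% of the sum of the pair in control and 64.2% to 66.5% in deletion libraries.

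Psme3 encodes the subunit of a related ring of the nucleus. It was at 91.1, 85.7 and 93.9 FPKM in control and at 78.6, 77.7 and 73.7 FPKM in deletion libraries (log2 fold change -0.23, SE 0.055, adjusted p = 0.0408). All deletion values were below all control values, as in 9.79% of all tested genes. Psme2b, a gene copy closely related to Psme2, was at 44.9, 44.3 and 41.7 FPKM in control and at 39.6, 36.2 and 37.7 FPKM in deletion libraries (adjusted p = 0.0615). Reads could be divided between Psme2 and Psme2b, so the single values are uncertain. Their sum was 373, 393 and 425 FPKM in control and 317, 332 and 324 FPKM in deletion libraries, again without overlap. Psme4, a large single-chain activator, was at 13.0, 11.8 and 12.5 FPKM and at 12.8, 12.5 and 12.9 FPKM (log2 fold change 0.03, 95% interval -0.11 to 0.17, and -0.05 with median-ratio scaling). Psmf1, which inhibits the core particle in vitro, was at 11.7, 10.8 and 10.9 FPKM and at 10.4, 10.9 and 11.6 FPKM (log2 fold change -0.02, 95% interval -0.18 to 0.14).

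**Figure D4:**
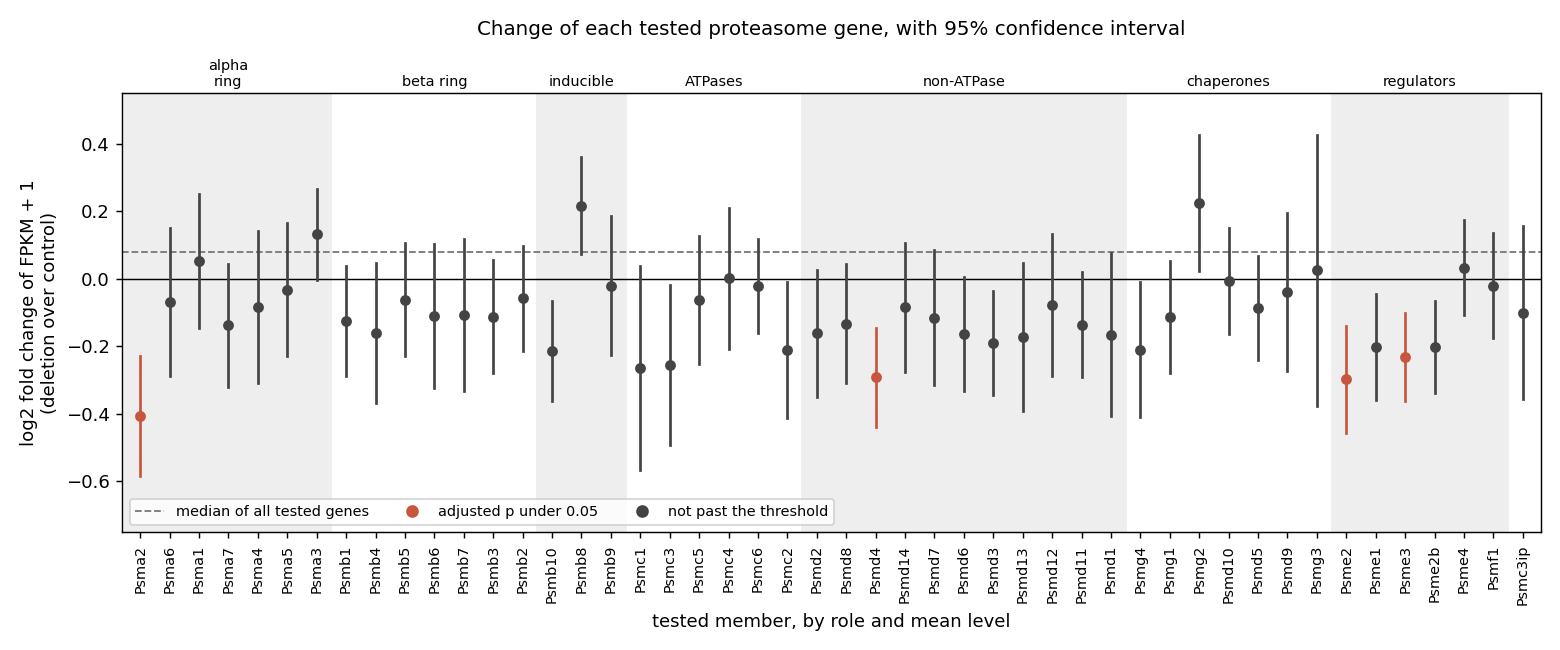
Log2 fold change of FPKM + 1 (deletion over control) with its 95% confidence interval from limma for the 48 tested proteasome genes, by role and mean level, with the median of all tested genes (0.08) as a dashed line. Psma2, Psmd4, Psme2 and Psme3 passed an adjusted p under 0.05, and Psmb8 and Psmg2 are the genes whose intervals lie above 0.

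Of the 7 assembly chaperones 0 passed in limma or voom. Unadjusted, Psmg2 and Psmg4 had a p under 0.05. Psmg1 with Psmg2, and Psmg3 with Psmg4, form dimers that build the alpha ring. Psmg2 was at 19.8, 23.5 and 22.6 FPKM in control and at 27.6, 26.2 and 23.7 FPKM in deletion libraries (log2 fold change 0.22, SE 0.085, adjusted p = 0.121), the highest log2 fold change of any member. Its partner Psmg1 was at 27.9, 27.8 and 31.1 FPKM and at 25.8, 25.6 and 28.5 FPKM (log2 fold change -0.11, adjusted p = 0.298). The groups did not overlap for Psmg2, with the deletion libraries higher, and overlapped for Psmg1. Psmg4, the highest of the chaperones, was at 46.5 ± 4.31 and 40.0 ± 2.74 FPKM (adjusted p = 0.136). Psmg3 was the lowest tested gene at 1.43 ± 0.385 and 1.48 ± 0.441 FPKM, from 54 to 96 fragments per library. Of the chaperones of the ATPase ring, Psmd10 was at 19.8 and 19.7 FPKM, Psmd5 at 15.4 and 14.4 FPKM and Psmd9 at 9.10 and 8.78 FPKM. Psmc3ip, taken by the name rule, encodes a meiotic recombination factor and not a proteasome subunit. It was at 4.97 ± 0.267 and 4.59 ± 0.717 FPKM (adjusted p = 0.549).

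Genes that act with the proteasome but carry other names were counted in fixed lists, chosen with earlier results known. Of 14 factors that bind or assemble it, 2 rose and 0 fell, with a median log2 fold change of 0.06. Among all tested genes 8.95% rose and 3.08% fell, with a median of 0.08. Midn, whose protein brings substrates to the proteasome without ubiquitin, was at 44.3, 46.9 and 43.0 FPKM in control and at 62.7, 59.4 and 59.7 FPKM in deletion libraries. It rose in all 17 settings (log2 fold change 0.43, SE 0.054, adjusted p = 0.00636, at most 0.0427). Zfand5, a proteasome activator, rose from 15.1 ± 0.595 FPKM to 18.5 ± 0.499 FPKM (adjusted p = 0.0267), but not with median-ratio scaling (adjusted p = 0.0697), and passed in 8 of 17 settings. The core particle chaperone Pomp was at 133 ± 14.5 and 141 ± 11.2 FPKM (adjusted p = 0.575).

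Of 9 tested transcription factors and processing enzymes for proteasome genes 0 passed in limma or voom. The unadjusted limma p was under 0.05 for 2, against 32.6% of all tested genes. Nfe2l1, which induces proteasome subunits when the proteasome is inhibited, was at 27.0 ± 1.95 and 26.2 ± 0.341 FPKM (adjusted p = 0.698). The 2 with the smallest p were Bach1, at 5.13 ± 0.241 and 5.87 ± 0.0963 FPKM (adjusted p = 0.138), and Mafg, at 5.90 ± 0.112 and 7.02 ± 0.827 FPKM (adjusted p = 0.144). Nfe2l3 was below the filter.

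Interferon gamma signalling and class I loading held 1 gene of 14 that rose and 2 that fell (1 and 3 in voom). Among all tested genes 8.95% rose and 3.08% fell (6.29% fell in voom). Ifng itself rose from 5.92 ± 0.504 FPKM to 10.7 ± 1.61 FPKM (adjusted p = 0.0114) and passed in all 17 settings. The chaperones Calr and Pdia3, which load class I molecules and fold many other proteins, fell from 330 ± 20.7 FPKM to 270 ± 9.40 FPKM (adjusted p = 0.0292) and from 214 ± 12.5 to 180 ± 4.60 FPKM (adjusted p = 0.0388). Calr passed in 10 and Pdia3 in 9 of 17 settings, and neither passed without the filter on low values or with any library but control library 2 left out. Irf2, an interferon regulatory factor, was at 50.9, 47.9 and 47.6 FPKM in control and at 44.5, 40.4 and 43.1 FPKM in deletion libraries, without overlap. Its adjusted p was 0.0739 in limma, 0.0363 with median-ratio scaling and 0.0295 in voom. Tap2 was at 55.5 ± 2.85 and 61.5 ± 1.39 FPKM (adjusted p = 0.12) and Nlrc5, the activator of class I genes, at 54.3 ± 6.02 and 68.6 ± 7.04 FPKM (adjusted p = 0.0732). For both, as for Psmb8 and Tap1, all deletion values lay above all control values, as in 29.3% of all tested genes. B2m was at 2622 ± 185 and 2376 ± 75.6 FPKM (adjusted p = 0.194).

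Of 16 genes of ubiquitin and its shuttle factors, 1 rose and 0 fell, with 12 of 16 below 0 and a median log2 fold change of -0.08. Among all tested genes 8.95% rose, 3.08% fell and 34.7% were below 0, with a median of 0.08. In voom 0 of the 16 rose and 4 fell, Rps27a, Rad23b, Nploc4 and Faf1, where 6.29% of all tested genes fell. The gene that rose is Bag6, a chaperone that delivers misfolded proteins, from 77.2 ± 2.18 to 90.1 ± 1.97 FPKM (adjusted p = 0.0309, and 0.129 with median-ratio scaling), a call made in 8 of 17 settings. Of the CCT chaperonin, a folding machine of the cytosol, 8 of 8 genes had a log2 fold change below 0, with a median of -0.14, and 1 fell (2 in voom). Cct4 fell from 123 ± 5.55 FPKM to 106 ± 3.29 FPKM (adjusted p = 0.0495), but passed in 6 of 17 settings, with adjusted p-values up to 0.161. It passed in none of the fits with a pseudocount of 5, without the filter, with a filter at 5 FPKM, without a variance trend or with a robust fit, nor with any library but control library 2 left out. Of 12 proliferation genes 0 passed in limma or voom, 0 had an unadjusted p under 0.05 and 12 were below 0, with a median of -0.19. Mcm3, a replication factor, was at 56.3, 38.3 and 66.3 FPKM in control and at 39.9, 49.6 and 38.6 FPKM in deletion libraries (adjusted p = 0.335), and Tyms, an enzyme of thymidine synthesis, at 8.95 ± 1.97 and 7.27 ± 1.70 FPKM (adjusted p = 0.369). The summed proliferation genes ran from 409 to 659 FPKM in control and from 427 to 560 FPKM in deletion libraries, and their part in the proteasome values was not tested.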

How the data were processed

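Messenger RNA was sequenced from 6 libraries (3 control, 3 Rcor1 deletion). The authors deposited FPKM values with 1 column per library, mapped here by sample description (0 columns unused). STAR and mm10 are named in the submitters' processing notes, and nothing states the counting tool, strand setting or annotation release.

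Symbols and lengths came from GENCODE M21, and 34490 identifiers matched. Totals were recovered because value times length falls on whole fragments. Of 21898 genes above 0, 15336 (70.0%) were whole within 0.01 fragments with the longest transcript and 6562 with a length solved from the values. The floor of 3 fragments covers counting error only, and the intervals of fold changes cover the spread between libraries.

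The filter on low values asked for 1 FPKM in 3 libraries. limma 3.58.1 (R 4.3.3) was fitted on log2(FPKM + 1) with a variance trend, two-sided, Benjamini-Hochberg adjusted over all tested genes. This scale understates changes of low genes. P-values measure the spread between these samples. Data were simulated from the mean levels and library totals here (11469 genes), with the same dispersion for every gene and no scale shift between libraries. That dispersion was set beforehand and not estimated from these libraries, so recovery in the real data may differ. On the simulated data limma recovered 13 of 66 genes changed 1.2-fold and 57 of 64 changed 1.5-fold, and voom recovered 30 and 57. False calls were 5.8% of the limma and 5.1% of the voom calls. The real libraries differ in scale (median-ratio factors 0.965 to 1.04), and recovery under such a shift was not simulated.

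Alternatives were 2 other scalings, other pseudocounts, filters and variance models, a replicate block, voom on fragments with median-ratio scaling, and leaving out each library. Named by rule were members past the threshold, Psmb5 to Psmb11, Psme1 to Psme4, Psmf1, the highest, lowest and 2 smallest-p members of each role, untested members, and up to 4 called genes of each further list (otherwise the 2 with the smallest p). Other genes were named after their values were seen. Members and lists were chosen with earlier results of these data known.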

Additional observations from a re-analysis of the deposited data

How the results depend on the processing

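Of all tested genes 1036 rose and 356 fell, and 0 members rose and 4 fell. Without the filter 566 genes rose and 1 member fell. With quantile normalization 473 genes rose and 2 members fell. With median-ratio scaling 559 genes rose and 632 fell, and with voom 703 rose and 728 fell, and 8 members fell in each. Without a variance trend 2 members fell. With a library left out, 208 to 1441 genes rose, 128 to 501 fell, 0 to 1 members rose and 0 to 6 fell. The cause was not tested. Pseudocounts of 0.1 and 5, a filter at 5 FPKM and a robust fit left 4 members that fell.

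The replicate numbers did not pair the samples (correlations of deviations 0.21, -0.14 and -0.16 for numbers 1, 2 and 3). The highest correlation was 0.34, between control library 3 and deletion library 2. With the replicate block 269 genes rose, 135 fell and 0 members passed.

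Log2 fold changes that turned sign were of members not past the threshold. With median-ratio scaling they were -0.033 for Psma1, -0.084 for Psmc4, -0.048 for Psme4 and -0.026 for Psmg3, and with voom -0.032, -0.085, -0.051 and -0.036. With quantile normalization they were -0.033 for Psmc4, -0.062 for Psme4 and -0.087 for Psmg3. With a library left out, they ran from -0.018 to 0.119 for Psma1, -0.085 to 0.052 for Psma5, -0.158 to 0.025 for Psma6, -0.117 to 0.032 for Psmb9, -0.181 to 0.0041 for Psmc3ip, -0.052 to 0.099 for Psmc4, -0.055 to 0.028 for Psmc6, -0.046 to 0.035 for Psmd10, -0.117 to 0.065 for Psmd9, -0.0028 to 0.063 for Psme4, -0.058 to 0.013 for Psmf1 and -0.112 to 0.149 for Psmg3. The summed FPKM of the inducible subunits changed by -5.20% to 2.24%.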
